A study of Mus musculus with 40 samples.

Results

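The insulin-like growth factor (IGF) system of mouse cardiac fibroblasts was examined as 10 genes: the ligands Igf1 and Igf2, the noncoding RNA H19 next to Igf2, the receptor Igf1r, and the binding proteins Igfbp2, Igfbp3, Igfbp4, Igfbp5, Igfbp6 and Igfbp7. They were taken by name, and each Ensembl identifier of the count table was matched to its mouse symbol. All 10 were among the 25210 genes tested, of 55414 in the table. The cells came from hearts of male C57BL/6J mice with floxed alleles of TAK1, the kinase encoded by Map3k7 (TAK1fl/fl). They were used at passage 1. They carried an adenovirus for LacZ, the control, or for iCre, a Cre recombinase that removes exon 2 of Map3k7. They were then serum-starved and received no ligand (control, Con), bFGF at 20 ng/ml, TGFβ at 10 ng/ml, IL-1β at 15 ng/ml or TNFα at 10 ng/ml for 24 h. This gives 10 groups of virus by ligand with 4 replicates each, 40 poly-A RNA libraries in all. The floxed allele, an adenovirus and starvation were common to all groups, controls included, and before starvation all cultures had been kept in serum with bFGF, insulin, transferrin and selenium, so "no ligand" means no ligand during the last 24 h. Cre acted in whatever cells the virus infected, with no promoter specific to fibroblasts.

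IGF-I and IGF-II are secreted peptides that signal through the IGF-I receptor, a tyrosine kinase, to the PI3K-AKT and MAPK pathways, and in the heart they act on growth and survival of myocytes and on matrix production by fibroblasts. In tissue fluid most IGF is held by binding proteins, which extend its lifetime and limit or present it to the receptor, and which proteases such as PAPP-A cut to release it. Igf2 and H19 lie in one imprinted domain, where Igf2 is expressed from the paternal and H19 from the maternal chromosome.

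In the GRCm38 build, H19 (chr7:142575529-142578143, minus strand) and Igf2 (chr7:142650766-142666816, minus strand) were 72.6 kb apart. Igfbp2 (chr1:72824503-72852474, plus strand) and Igfbp5 (chr1:72857932-72874884, minus strand) were 5.46 kb apart. Igf1 lay at chr10:87858265-87937042 (plus strand), Igf1r at chr7:67952827-68233668 (plus), Igfbp3 at chr11:7206086-7213923 (minus), Igfbp4 at chr11:99041244-99054392 (plus), Igfbp6 at chr15:102144362-102149511 (plus) and Igfbp7 at chr5:77349240-77408041 (minus). Igf2 shared 3596 of its 5723 exonic bases (62.8%) with Gm49394, annotated on the same strand and listed with 0 counts over the 40 libraries. How reads over shared bases were counted is not given in the sources used here, so the level of Igf2 is uncertain. Igfbp7 shared 85 exonic bases with Polr2b.

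The 250 bases before the RefSeq start are shown for Igf1, Igfbp3 and Igfbp5, because Igf1 changed with TGFβ and with TNFα, and Igfbp3 and Igfbp5 differed between viruses in cells with TNFα. They were read from the RefSeq table of GRCm38.p6 on the strand of the gene, for Igf1 chr10:87860861-87861110 (plus), for Igfbp3 chr11:7213924-7214173 (minus) and for Igfbp5 chr1:72874866-72875115 (minus). The Igf1 stretch lies inside the gene span given above, before a RefSeq start downstream of the annotated gene start. Capitals mark a match to the AP-1 site TGANTCA.
Igf1: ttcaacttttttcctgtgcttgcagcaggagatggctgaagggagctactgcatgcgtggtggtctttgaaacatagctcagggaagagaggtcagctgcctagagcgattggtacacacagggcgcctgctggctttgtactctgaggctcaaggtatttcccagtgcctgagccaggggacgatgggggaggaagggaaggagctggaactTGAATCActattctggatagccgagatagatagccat
Igfbp3: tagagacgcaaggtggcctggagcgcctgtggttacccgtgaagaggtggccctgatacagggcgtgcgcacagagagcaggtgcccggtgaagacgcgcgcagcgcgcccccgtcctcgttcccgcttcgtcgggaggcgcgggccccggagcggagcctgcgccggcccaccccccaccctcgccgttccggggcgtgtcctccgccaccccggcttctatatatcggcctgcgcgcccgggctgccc
Igfbp5: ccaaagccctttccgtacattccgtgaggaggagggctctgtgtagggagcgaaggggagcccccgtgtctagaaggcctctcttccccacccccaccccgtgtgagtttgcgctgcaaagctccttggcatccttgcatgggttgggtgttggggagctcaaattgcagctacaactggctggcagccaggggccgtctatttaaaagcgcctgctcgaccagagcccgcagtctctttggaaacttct
The AP-1 match of Igf1 began 37 bases before that RefSeq start, and 6.75% of 32851 promoter windows held one, counted on both strands. Among members not shown, Igfbp2 held one in the window chr1:72825137-72825386, 39 bases before the start, and none in chr1:72824230-72824479. Igf1 also held CCAAT, as 33.8% of windows did. No match to TATAAA, to the SMAD repeat CAGACAG, to the NF-κB motif GGGANNTCC or to GGGCGG was found in the 3 stretches, and Igfbp3 and Igfbp5 held none of the 6 motifs. Among all windows these motifs were present in 12.4% (TATAAA), 6.27% (CAGACAG), 3.59% (GGGANNTCC) and 32.7% (GGGCGG). The motifs were searched on both strands and do not overlap one another in these stretches. Letters alone do not show that a factor binds there.

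H19 also carries the precursor of miR-675 within its exon, with 84 exonic bases shared between both annotations. Its mature products are given because H19 is their host transcript. Capitals mark the seed, bases 2 to 8.
miR-675-5p: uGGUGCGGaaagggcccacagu
miR-675-3p: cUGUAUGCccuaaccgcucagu
Neither seed was found in another of the 1738 mature miRNAs of the table. Mir675 itself had 0 counts in the 40 libraries, and a poly-A library of long RNA does not measure mature miRNAs.

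Library totals ran from 25360947 to 66160732 counts (median 36183962). Map3k7 was lower with iCre, at 121.7 to 160.2 CPM (counts scaled to library size, median 131.3), than with LacZ, at 143.9 to 251.1 (median 212.7), and reads over its undeleted exons still count. Fibroblast markers were abundant in every library, the sum of 10 lying between 15351 and 69714 CPM, while the endothelial list of 4 genes summed to at most 25.8 CPM and the leukocyte list of 5 to between 16.3 and 156.2 CPM. Of the 4 cardiomyocyte genes, Myh6, Nppa and Actc1 had medians of 0 CPM and Tnnt2 a median of 6.54 and a highest value of 110.3 CPM. With 3, 5 and 14 counts over all 40 libraries against 21428 for Tnnt2, the sum of that list is in effect Tnnt2 alone, and it is called the Tnnt2 sum from here on. Single genes also carried much of other sums, Lyz2 in the leukocyte list (median 46.5 CPM), Rgs5 in the mural list (557.6), Tek in the endothelial list (6.24) and S100b in the Schwann list (4.51). The fibroblast sum weighed mainly collagen RNA, with medians of 10755 CPM for Col3a1, 5891 for Col1a2 and 4905 for Col1a1. Vim followed with 3277, while Thy1 had 556.1 and Tcf21 32.8 CPM. Base composition differed between groups. The slope of log2 CPM per 10 points of GC percentage ran from 0.21 to 0.34 in 12 libraries, those of iCre cells given TGFβ, IL-1β or TNFα, whereas it ran from -0.25 to -0.007 in the remaining 28. Exonic GC was 38.0% for Igf1, the lowest of the 10 genes, and 62.1% for Igfbp2, the highest, and values corrected for GC content are given where they change a call.

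The libraries numbered replicate 2 stood apart, and they did so in all 10 groups. Their root mean square deviation from the group mean over 13090 genes had a median of 0.37 on the log2 scale, against 0.265, 0.184 and 0.22 for replicates 1, 3 and 4. H19 was highest in replicate 2 in 10 of 10 groups, at 4.15 to 98.8 times the mean of the other 3 replicates. Igfbp4 (1.73 to 8.07 times) and Igfbp6 (2.47 to 9.74 times) were highest there in 10 of 10 groups as well, and Igf2 in 9 of 10. Igfbp7 was lowest in replicate 2 in 10 of 10 groups (0.424 to 0.619 times), and Igf1 and Igfbp2 were lowest there in 8 of 10. Replicate 1 was often at the other end. Igfbp7 was highest in replicate 1 in 10 of 10 groups and Igf1 in 9, while H19 and Igfbp4 were lowest there in 9. The replicates that remain without replicate 2 were thus not alike either. Replicate 2 also differed in cell type markers. Among the fibroblast genes Pdgfra was above and Tcf21 below all other replicates in 10 of 10 groups, and the sum of the fibroblast list was below them in 6 groups and above in 1. The sum of the mural list of 4 genes (71.9 to 1920 CPM over all libraries) and the Tnnt2 sum (0.326 to 110.3 CPM) were below in 10 of 10 groups, the leukocyte and Schwann lists in 9 and the mesothelial list above in 7. Members went the other way, with Cd68 of the leukocyte list and Sox10 of the Schwann list above in 6 groups and below in 0. In the mural list Kcnj8 was above in 4 groups and below in 3, and Myh11 above in 3 and below in 2. In the endothelial list Cdh5 was above in 10 groups and Tek below in 8. In the mesothelial list Msln was above in 10 groups, Upk3b below in 10 and Wt1 below in 5. The part of these marker differences in the results was not tested. Same-numbered libraries deviated together across groups, so the replicate number was also used as a block. The size of an adjusted p with the block cannot be compared between comparisons, as shown under the processing. Results for the 10 genes are given from edgeR on 4 against 4 libraries, then without replicate 2, and with the block where that changes the call, and "only with the block" is said among these 3 edgeR fits.

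**Figure D1:**
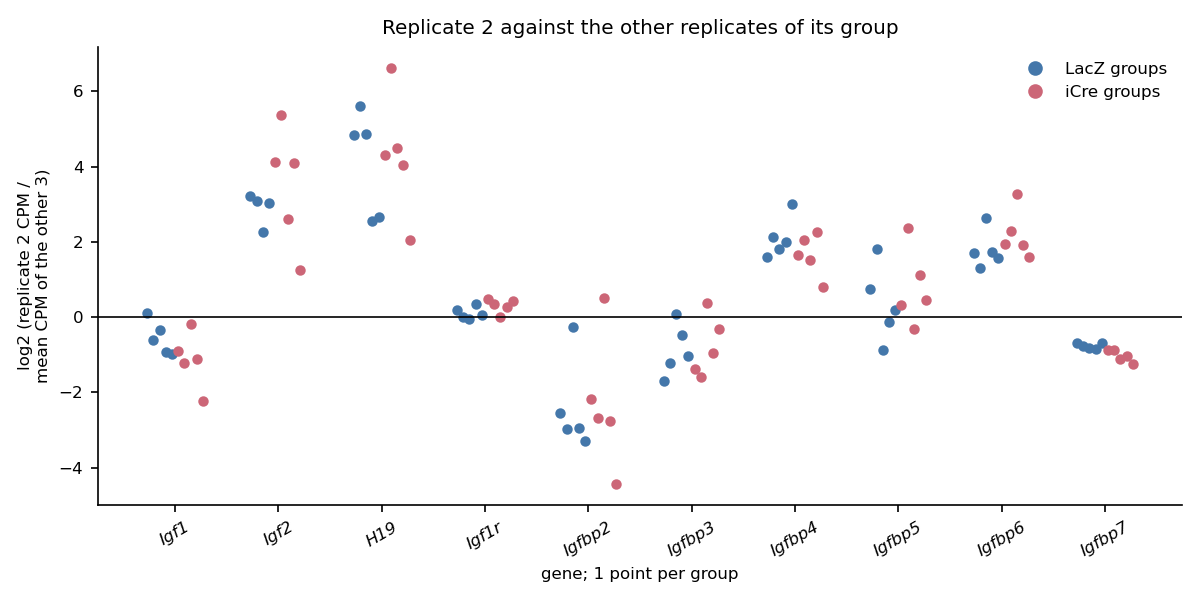
Replicate 2 against the other replicates, as log2 of its CPM over the mean CPM of the other 3, with 1 point for each of the 10 groups (blue LacZ, red iCre) and 1 column of points for each gene. H19, Igfbp4 and Igfbp6 lie above 0 in all 10 groups and Igfbp7 below 0 in all 10, while Igf1r lies near 0 (0.969 to 1.39 times the other replicates). The group in which Igf2 was 0 in replicate 2 is not drawn.

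Igfbp7, which binds IGF weakly and sits in the matrix of many stromal cells, was by far the most abundant of the 10 per length. Its group means lay between 1016 and 2171 CPM per kb of exon. Among the other binding proteins Igfbp4, an inhibitor that PAPP-A cuts, followed with 30.8 to 142.4, then Igfbp5 with 7.84 to 91.5 and Igfbp6, which prefers IGF-II, with 26.3 to 65.9 CPM per kb. The group means of H19 ran from 0.952 to 131.1, above Igfbp5 and Igfbp6 at the upper end, which rested on replicate 2 (322.6 CPM in iCre cells with bFGF, 12.7 CPM without that replicate). Replicate 2 also raised the highest means of Igf2 (1.93 CPM, 0.376 without it), Igfbp4 (628.8 and 323.5) and Igfbp6 (73.3 and 46.8). The group means of Igfbp3 lay between 4.41 and 31.7 CPM per kb. Igf1 ranged from 0.905 to 28.5 and Igf1r from 7.56 to 11.7, so the receptor had the narrowest range and Igf1 one of the widest. Igfbp2 (0.737 to 7.54) and Igf2 (0.00451 to 0.338) were lowest. Of the transcripts of the 6 binding proteins, Igfbp7 made up 79.3% ± 14.4 (SD, n = 4) in iCre cells with no ligand, the lowest group mean, and 92.6% ± 5.64 (SD, n = 4) in LacZ cells with TGFβ, the highest. Igfbp4 took 11.9% ± 9.77 (SD, n = 4) in iCre cells with no ligand and 1.92% ± 2.05 (SD, n = 4) in LacZ cells with TGFβ. Within iCre control cells the lowest Igfbp7 share was 57.6% and the highest 87.5%, and Igfbp7 was lowest and Igfbp4 highest in replicate 2.

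**Figure D2:**
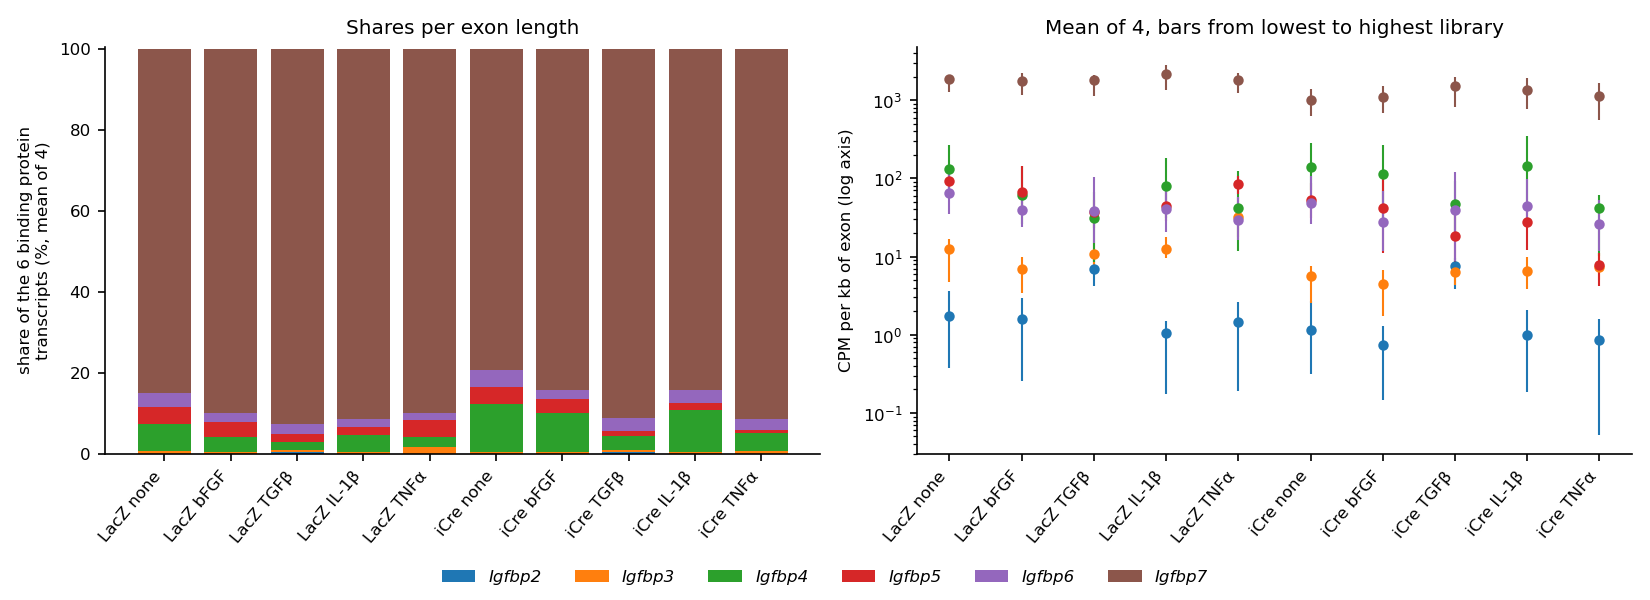
The 6 binding proteins in the 10 groups, left as the mean share of their summed transcripts per exon length (percent, bars stacked to 100) and right as CPM per kb of exon on a log axis, with points for the mean of 4 libraries and lines from the lowest to the highest library. Igfbp7 fills most of every bar (79.3% to 92.6%), and Igfbp5 is lowest in iCre cells with TNFα, at 7.84 CPM per kb.

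**Figure D3:**
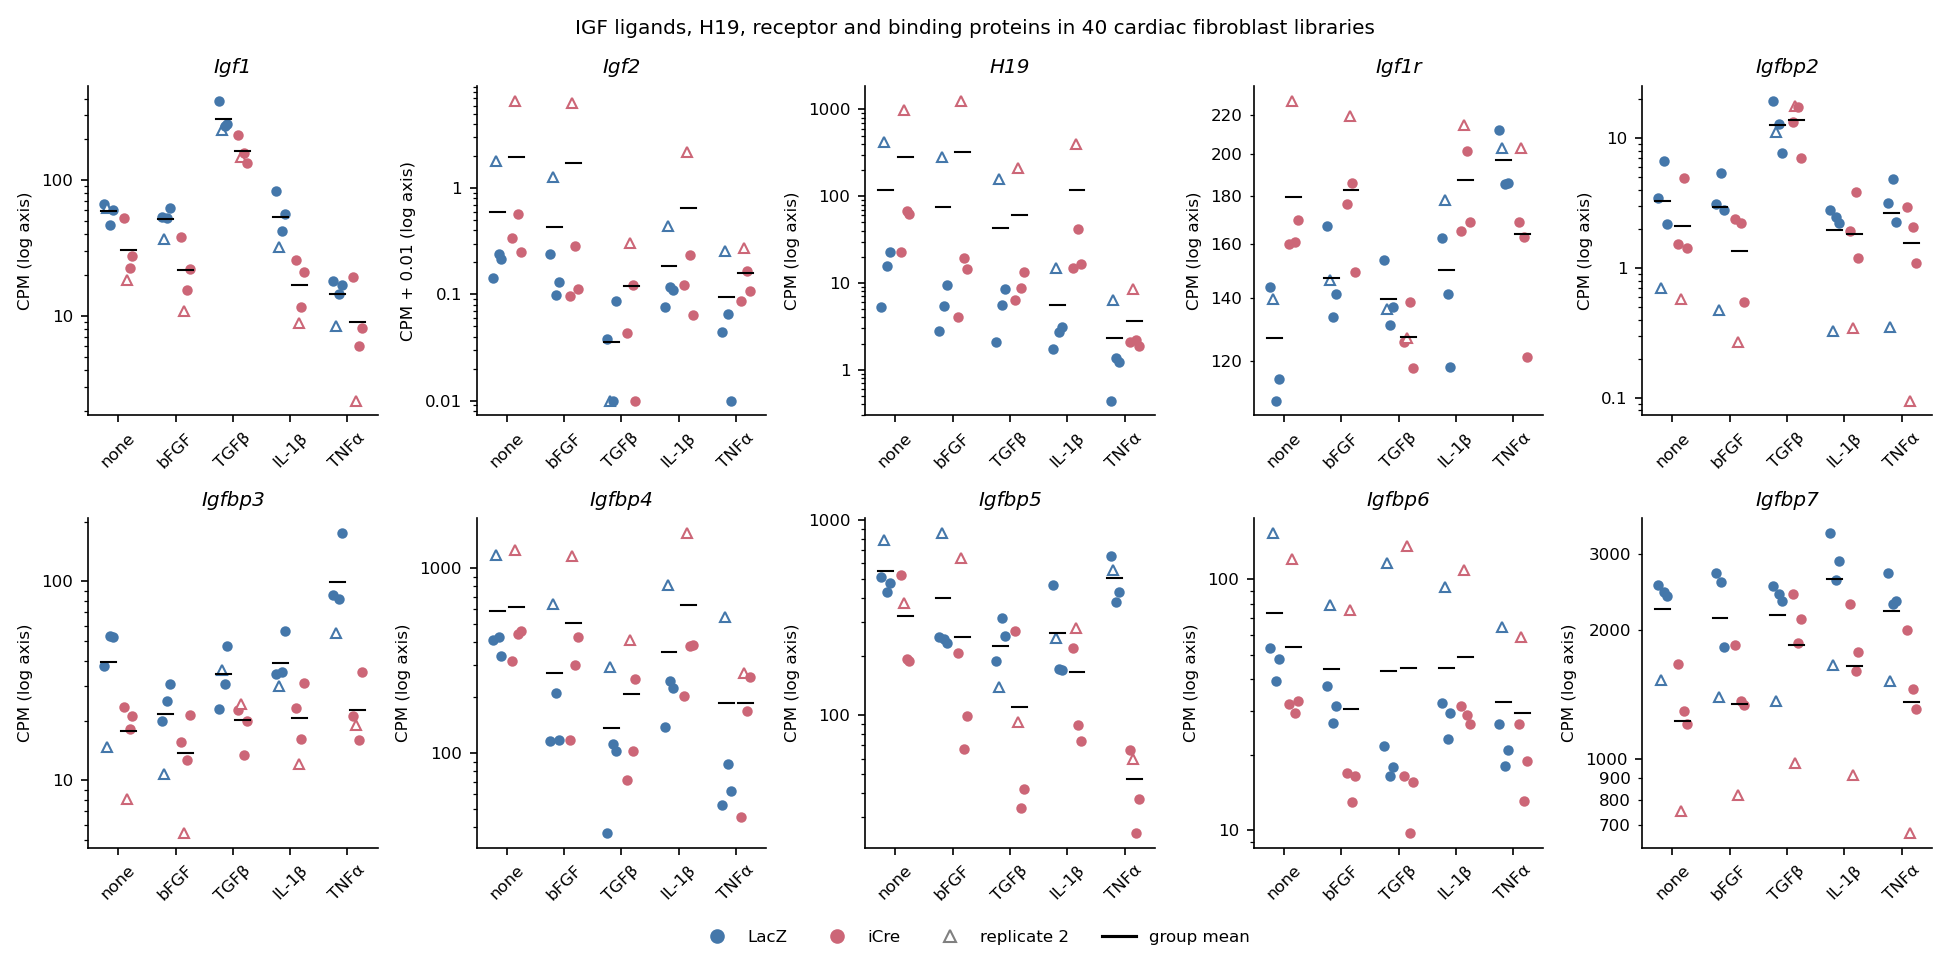
CPM of the 10 genes in each of the 40 libraries on log axes, by ligand and virus (blue LacZ, red iCre), with open triangles for replicate 2 and black lines for group means; 0.01 was added to the CPM of Igf2 so that libraries at 0 could be drawn. Igf1 is high with TGFβ with either virus and low with TNFα, where in iCre cells replicate 1 lies among the controls. The triangles of H19, Igfbp4 and Igfbp6 lie at the top of every group.

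TGFβ and TNFα changed 3 to 5 of the 10 members in each virus group, and bFGF changed none in the fit without a block. With TGFβ in LacZ cells, 5 members passed (2 higher, 3 lower), where 36.9% of all genes tested did. Without replicate 2 it was 6 (37.1% of all genes) and with the block 7 (42.0%). In iCre cells TGFβ gave 4 members (2 higher, 2 lower; 37.4% of all genes), 8 without replicate 2 (40.0%) and 9 with the block (41.5%). For TNFα 3 members passed in LacZ cells (1 higher, 2 lower; 21.3% of all genes), 6 without replicate 2 (23.5%) and 7 with the block (35.5%). In iCre cells TNFα gave 4, all lower (27.0%), 3 without replicate 2 (25.4%) and 6 with the block (36.1%). The counts of 3 to 5 of 10 without a block thus stand beside 21.3% to 37.4% of all genes.

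IL-1β gave 2 members in LacZ cells, both lower (20.7% of all genes), 3 without replicate 2 (23.4%) and 8 with the block (33.5%). In iCre cells it gave 0 by edgeR (16.3%), with 0 at an unadjusted p of at most 0.05 and 0 by DESeq2 (5512 of 18006 genes). Without replicate 2 the count was 0 (18.1%) and with the block 6 (33.8%). For bFGF edgeR called 0 members in LacZ cells (11.6%) and 0 in iCre cells (2.42%). In both, 0 passed at an unadjusted p of at most 0.05 and 0 by DESeq2 (4672 of 18051 and 1998 of 17007 genes). Without replicate 2 there were 4 (18.2%) and 2 (12.7%), and with the block 6 (27.3%) and 6 (16.7%). No member was thus called for bFGF without the block on 4 against 4 libraries.

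Between iCre and LacZ cells with no ligand, edgeR called 0 members (0.0754% of all genes), with 5 at an unadjusted p of at most 0.05. DESeq2 called 3 (1346 of 15160 genes). By edgeR there were 3 without replicate 2 (2.78%) and 9 with the block (14.5%). With bFGF edgeR called 0 (0.0%), with 3 at an unadjusted p of at most 0.05, 1 without replicate 2 (1.0%) and 9 with the block (13.9%). DESeq2 called 1 (481 of 16033 genes). For the unadjusted counts no share of all genes is given. With TGFβ 1 member was lower in iCre cells (8.37%), 2 without replicate 2 (12.5%) and 6 with the block (20.8%). With IL-1β 3 passed (16.1%), 4 without replicate 2 (16.6%) and 7 with the block (29.5%), and with TNFα 2 passed (27.3%), 3 without replicate 2 (24.4%) and 6 with the block (32.2%). On 4 against 4 libraries the number of members called was thus 3 at most without the block and between 6 and 9 with it. The change with a ligand was also compared between viruses, as an interaction over 16 libraries. It was called for 1 member with TGFβ (4.51% of all genes; 3 with the block, 8.04%) and 2 with TNFα (16.1%; 2 with the block, 25.1%). By edgeR it was called for 0 with bFGF (0.0%, and 0 with the block, 0.0%) and for 0 with IL-1β (7.71%, and 3 with the block, 16.9%). For both ligands 0 members passed at an unadjusted p of at most 0.05 and 0 by DESeq2. Over all genes DESeq2 called 0 of 25046 with bFGF and 2943 of 16795 with IL-1β.

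**Figure D4:**
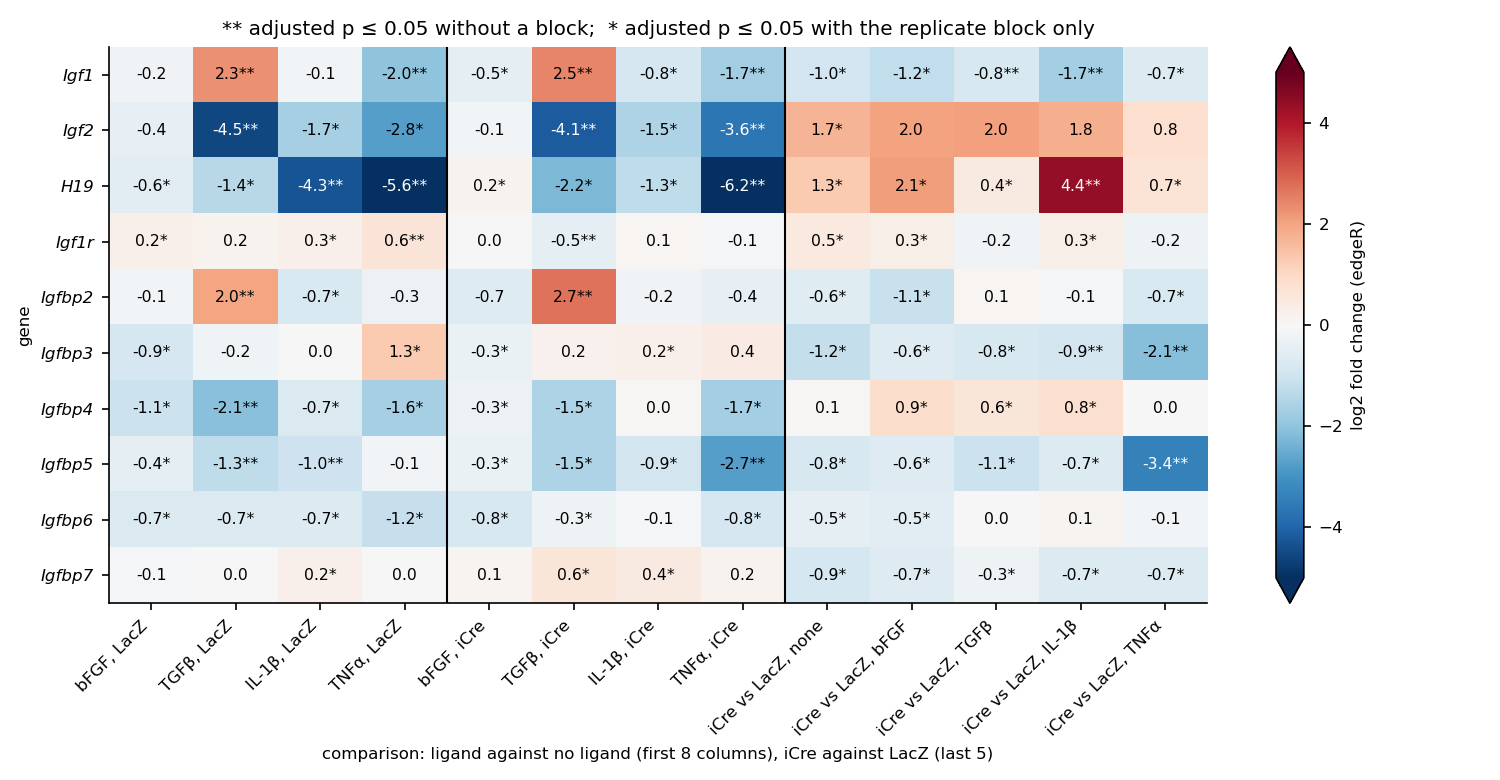
Log2 fold changes of the 10 genes by edgeR (colour and number) for each ligand against no ligand in LacZ and iCre cells (first 8 columns) and for iCre against LacZ in each condition (last 5 columns). A pair of asterisks marks an adjusted p of at most 0.05 without a block and a single asterisk one that passed with the replicate block only; Igf1 was called in 6 of these 13 columns without a block, and for H19 with bFGF in iCre cells the blocked change has the opposite sign to the number shown.

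Igf1, the ligand through which growth hormone acts and a product of stromal cells in many tissues, rose with TGFβ whichever virus the cells carried. With TNFα it fell in LacZ cells, and in iCre cells with overlap. In LacZ cells with no ligand its level was 66.8, 62.6, 47.1 and 60.0 CPM in replicates 1 to 4, and with TGFβ it was 383.6, 234.8, 249.8 and 261.2 CPM. The groups did not overlap, and the lowest library with TGFβ was over 3 times the highest without. The rise was 4.85-fold (log2 fold change 2.28 ± 0.18 SE, edgeR adjusted p = 8.73e-06, n = 4 per group) and 5.18-fold without replicate 2. In iCre cells Igf1 stood at 52.9, 18.3, 22.6 and 27.7 CPM with no ligand and at 217.1, 148.8, 157.7 and 133.9 CPM with TGFβ, again with no overlap, a 5.49-fold rise (log2 2.46 ± 0.31 SE, adjusted p = 0.000127). The rise did not differ detectably between viruses (interaction 0.15 ± 0.38 SE, adjusted p = 0.955). Corrected for GC content with the block, the interaction was 0.93 with an adjusted p of 0.0219. The sum of the fibroblast list was also higher with TGFβ with no overlap, at 57153 to 66622 CPM against 30434 to 47665 in LacZ controls and at 46878 to 61773 against 20809 to 37001 in iCre controls. The endothelial list was lower with no overlap in both, at 6.73 to 8.65 CPM against 16.7 to 25.8 in LacZ cells and 3.71 to 5.42 against 9.0 to 17.2 in iCre cells. In LacZ cells the mural list was also higher with TGFβ (661.5 to 1167 CPM against 102.7 to 553.6), and the Tnnt2 sum (2.82 to 14.4 against 14.6 to 110.3) and the Schwann (4.47 to 9.0 against 9.9 to 15.9) and mesothelial lists (1.29 to 2.23 against 3.34 to 4.44) were lower, all with no overlap. These shifts accompany every change with TGFβ given for the 10 genes, and their part was not tested.

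With TNFα the 4 LacZ libraries had 18.1, 8.39, 14.5 and 17 CPM of Igf1, all below the 4 controls. The fall was 4.07-fold (log2 -2.03 ± 0.22 SE, adjusted p = 0.000215, 4 of 4 pairs lower) and 3.53-fold without replicate 2. In LacZ cells given TNFα the Tnnt2 sum was 0.874 to 6.65 CPM, and the endothelial list summed to 7.66 to 10.8 and the Schwann list to 4.19 to 7.09 CPM, all below the controls with no overlap. These shifts accompany every change with TNFα in LacZ cells given for the 10 genes, and their part was not tested. In iCre cells with TNFα the values were 19.4, 2.38, 5.96 and 8.11 CPM, lower than in the control library of the same number in 4 of 4 pairs, although replicate 1 lay among the controls. This was a 3.31-fold fall with an adjusted p of 0.0471, or 0.0311 without replicate 2. The call was lost without replicate 3 (log2 -1.69) or 4 (log2 -1.75) and under the GC correction alone (log2 -1.02, adjusted p = 0.214) but not with the block added (log2 -1.23, adjusted p = 0.00123). IL-1β left Igf1 at 83.1, 32.0, 42.5 and 56.2 CPM in LacZ cells, overlapping the controls (adjusted p = 0.766). bFGF in LacZ cells gave 36.8 to 62.8 CPM (adjusted p = 0.53). With bFGF there the endothelial (11.5 to 14.7 CPM), Schwann (4.71 to 9.67) and mesothelial lists (0.927 to 2.92) were below the controls with no overlap, beside each change with bFGF in LacZ cells. In iCre cells both gave lower values in 4 of 4 pairs and passed only with the block (bFGF log2 -0.51, adjusted p = 0.000931; IL-1β log2 -0.84, adjusted p = 3.38e-16), and for IL-1β not with the GC correction added (log2 -0.16, adjusted p = 0.232).

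Igf1 was also lower in iCre than in LacZ cells. With IL-1β the iCre libraries had 25.9, 8.93, 11.6 and 20.9 CPM, all below the LacZ libraries, 3.22-fold lower by group (log2 -1.69 ± 0.37 SE, adjusted p = 0.0116) and 3.09-fold lower without replicate 2. The GC correction took this call away (log2 -1.002, adjusted p = 0.144), and with the block it returned (log2 -1.05, adjusted p = 2.33e-07). It was also lost without replicate 3 (log2 -1.65) or 4 (log2 -1.79). The fibroblast list with IL-1β summed to 36618 to 69714 CPM in LacZ cells and 22845 to 35690 CPM in iCre cells, again with no overlap, and its part in the result was not tested. With TGFβ the difference was 1.75-fold with no overlap (log2 -0.81 ± 0.18 SE, adjusted p = 0.0239; without replicate 2 adjusted p = 0.00865; not called without replicate 3, log2 -0.85, or 4, log2 -0.77), and it was close to 0 after GC correction, alone (log2 -0.09, adjusted p = 0.923) or with the block (log2 -0.09, adjusted p = 0.68). The endothelial list with TGFβ was also lower in iCre cells with no overlap (3.71 to 5.42 against 6.73 to 8.65 CPM), as it was with bFGF (8.79 to 11.1 against 11.5 to 14.7 CPM), and its part in the differences between viruses with these ligands was not tested. In resting cells Igf1 was lower with iCre in 4 of 4 pairs but passed only with the block (log2 -1.07 ± 0.14 SE, adjusted p = 8.8e-05; without a block edgeR adjusted p = 0.186), while DESeq2 called it without a block (adjusted p = 0.033). With bFGF it was likewise lower in 4 of 4 pairs and passed in edgeR only with the block (log2 -1.38, adjusted p = 6.17e-07) and in DESeq2 without one (adjusted p = 0.0359). With TNFα it was lower in 3 of 4 pairs, passed only with the block (log2 -0.97, adjusted p = 0.0213) and did not with the GC correction added (log2 -0.25, adjusted p = 0.579). In order of group means Igf1 stood highest with TGFβ in LacZ cells, then with TGFβ in iCre cells, then in LacZ controls, and these 3 did not overlap. All 7 later neighbours in the order overlapped, down to TNFα in iCre cells at 8.97 CPM ± 7.36 (SD, n = 4).

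Igf2 was close to the detection limit, with 1138 counts over the 40 libraries, of which 473 came from 1 library. In LacZ controls the 4 libraries had 0.134, 1.78, 0.231 and 0.203 CPM and with TGFβ 0.0276, 0, 0 and 0.0758 CPM, so the groups did not overlap. The fitted fall was 23.2-fold (log2 -4.53 ± 1.202 SE, edgeR adjusted p = 0.0132), but 5.64-fold and no longer called without replicate 2 (adjusted p = 0.0616). In iCre cells Igf2 was 0.327, 6.61, 0.558 and 0.243 CPM with no ligand and 0.0331, 0.296, 0.112 and 0 CPM with TGFβ, 17.7-fold lower with overlap through replicate 2 (adjusted p = 0.027) and 8.01-fold lower without replicate 2 (adjusted p = 0.0172), but not called without replicate 1 (log2 -4.20) or 3 (log2 -4.49). With TNFα in iCre cells it was 0.0763, 0.262, 0.156 and 0.0973 CPM, 12.3-fold lower (adjusted p = 0.036) and 3.3-fold lower without replicate 2, where it did not pass (adjusted p = 0.0548), as it did not without replicate 1, 3 or 4 (log2 -3.76, -3.96 and -3.87). For a library at 0 counts an expected count of up to 3 remains possible, so folds against such libraries depend on the prior count. With TNFα in LacZ cells Igf2 passed only with the block (log2 -2.67, adjusted p = 0.000911), as it did with IL-1β in LacZ (adjusted p = 0.0169) and iCre cells (adjusted p = 1.16e-05) and between iCre and LacZ controls (log2 1.403, adjusted p = 0.00512).

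H19, an imprinted noncoding RNA of fetal tissue and muscle, fell steeply with TNFα, and replicate 2 stood at a median of 21.1 times the other replicates. In LacZ controls the 4 libraries had 5.25, 422.2, 15.7 and 22.9 CPM, and with TNFα 0.441, 6.36, 1.35 and 1.21 CPM. All 4 pairs were lower although replicate 2 with TNFα still exceeded replicate 1 without. The fall was 49.2-fold (log2 -5.62 ± 1.49 SE, edgeR adjusted p = 0.0239) and 14.5-fold without replicate 2 (log2 -3.85, adjusted p = 0.000579), and it was not called without replicate 3 (log2 -5.78) or 4 (log2 -5.75). In iCre cells H19 went from 22.5, 994.4, 66.9 and 61.6 CPM to 2.09, 8.49, 2.18 and 1.88 CPM with TNFα, with no overlap, 76.0-fold lower (adjusted p = 0.00621) and 24.0-fold lower without replicate 2 (adjusted p = 0.00028). The Tnnt2 sum and the endothelial and Schwann lists were lower with TNFα in LacZ cells too, as given for Igf1, whereas in iCre cells every list overlapped between TNFα and no ligand.

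IL-1β lowered H19 in LacZ cells to 1.75, 14.8, 2.74 and 3.09 CPM, lower in 4 of 4 pairs with overlap through replicate 2, 20.0-fold by group (adjusted p = 0.0462) and 5.75-fold without replicate 2 (adjusted p = 0.00172), and not called without replicate 1, 3 or 4 (log2 -4.45, -4.47 and -4.46). In the same libraries the Tnnt2 sum was 0.326 to 1.67 CPM, and the endothelial list summed to 6.75 to 9.32, the Schwann list to 4.4 to 8.08 and the mesothelial list to 1.02 to 1.95 CPM, all below the LacZ controls with no overlap, shifts that accompany every change with IL-1β in LacZ cells. With IL-1β in iCre cells it stayed at 14.8, 403.1, 42.4 and 16.7 CPM, lower than the controls in 4 of 4 pairs but called only with the block (log2 -1.09, adjusted p = 1.16e-23). The iCre libraries with IL-1β thus did not overlap the LacZ libraries when taken as groups, the lowest iCre value equalling the highest LacZ value to 3 digits, and the difference was 20.8-fold (log2 4.38 ± 1.18 SE, adjusted p = 0.0293) or 9.78-fold without replicate 2 (adjusted p = 0.000256). With the GC correction its adjusted p was 0.0538, and it was not called without replicate 1, 3 or 4 (log2 4.47, 4.44 and 4.54). With IL-1β the Tnnt2 sum was likewise higher in iCre cells, at 1.93 to 15.8 CPM, and the fibroblast list was lower, both with no overlap. Both shifts accompany every difference between viruses with IL-1β given for the 10 genes, and their part was not tested. The interaction of IL-1β with iCre passed only with the block (log2 2.19 ± 0.48 SE, adjusted p = 0.00326, and 0.0111 with the GC correction added; without a block adjusted p = 0.446). TGFβ lowered H19 with the block in LacZ (log2 -1.41 ± 0.08 SE, adjusted p = 4.71e-07) and iCre cells (log2 -2.28 ± 0.14 SE, adjusted p = 6.49e-08) and without replicate 2 in both (adjusted p = 0.0448 and 0.000251), but not on 4 against 4 libraries (adjusted p = 0.504 and 0.24). The interaction of TGFβ with iCre passed only with the block (log2 -0.94, adjusted p = 0.0218), as did the lower level with bFGF in LacZ cells (log2 -1.04, adjusted p = 2.47e-05). With bFGF in iCre cells the sign depended on replicate 2, which rose from 994.4 to 1252 CPM while the other 3 went from 22.5, 66.9 and 61.6 to 4.09, 19.4 and 14.5 CPM. The estimate was 0.17 on all 4 pairs (adjusted p = 0.988), -1.99 without replicate 2 (adjusted p = 0.0312) and -1.44 with the block (adjusted p = 0.00264). H19 was higher with iCre than with LacZ in 4 of 4 pairs in all 5 conditions, and with the block the difference passed in each (log2 0.72 to 3.69), with TNFα not once GC was corrected too (adjusted p = 0.152).

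Igf1r, the receptor, changed little in size but with a small spread, and the change with TNFα differed between viruses. In LacZ cells its level was 144.0, 139.9, 108.8 and 114.8 CPM with no ligand and 212.0, 202.9, 185.6 and 186.2 CPM with TNFα, with no overlap. The rise was 1.55-fold (log2 0.64 ± 0.10 SE, edgeR adjusted p = 0.00217; 1.58-fold without replicate 2, adjusted p = 0.00207), beside the lower Tnnt2 sum and the lower endothelial and Schwann lists given for Igf1. In iCre cells Igf1r stood at 160.1, 227.7, 160.9 and 169.9 CPM with no ligand and at 168.9, 202.7, 163.0 and 121.1 CPM with TNFα, overlapping (log2 -0.10 ± 0.17 SE, adjusted p = 0.714). The interaction was -0.74 ± 0.21 SE (adjusted p = 0.0212, and 0.0146 without replicate 2), and the call was lost without replicate 3 (log2 -0.77) or 4 (log2 -0.64). TGFβ left Igf1r at 131.2 to 153.8 CPM in LacZ cells (adjusted p = 0.288) but at 125.7, 126.9, 138.8 and 117.8 CPM in iCre cells, all below the 4 iCre controls, a 1.39-fold fall (log2 -0.48 ± 0.12 SE, adjusted p = 0.00922; 1.27-fold without replicate 2, adjusted p = 0.00764; not called without replicate 4, log2 -0.46). The interaction of TGFβ with iCre was -0.66 ± 0.16 SE (adjusted p = 0.0258, and 0.0374 without replicate 2), and the call was lost without replicate 1, 3 or 4 (log2 -0.73, -0.72 and -0.64). In the controls Igf1r was higher with iCre in 4 of 4 pairs with no overlap but passed only with the block (log2 0.49 ± 0.08 SE, adjusted p = 0.000541; without a block edgeR adjusted p = 0.166), while DESeq2 called it without a block (adjusted p = 0.0273). With bFGF and IL-1β in LacZ cells it was higher in 4 of 4 pairs, again called only with the block (log2 0.24, adjusted p = 0.0181, and 0.25, adjusted p = 0.0135). With bFGF it was higher in iCre than in LacZ cells in 4 of 4 pairs and passed only with the block (log2 0.304, adjusted p = 0.0181), and with IL-1β it passed with the block (log2 0.31, adjusted p = 0.0105), but not with the GC correction added (log2 0.22, adjusted p = 0.0883), and with TNFα it was lower only with both (log2 -0.36, adjusted p = 0.0319). All 9 neighbours in the order of group means overlapped.

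Igfbp5, a matrix-associated binding protein, was 10.5-fold lower in iCre than in LacZ cells with TNFα. In LacZ cells it was 509.0, 787.1, 428.3 and 473.8 CPM with no ligand and 651.3, 551.7, 382.3 and 427.9 CPM with TNFα, overlapping (log2 -0.12 ± 0.22 SE, edgeR adjusted p = 0.748). In iCre cells it was 523.3, 377.5, 194.6 and 188.7 CPM with no ligand and 66.6, 59.4, 25 and 37.4 CPM with TNFα, with no overlap. The fall there was 6.66-fold (log2 -2.74 ± 0.41 SE, adjusted p = 0.00105; 6.85-fold without replicate 2, adjusted p = 0.00302). With TNFα the iCre libraries lay 10.5-fold below the LacZ libraries (log2 -3.40 ± 0.32 SE, adjusted p = 0.000156; 11.3-fold without replicate 2, adjusted p = 0.000196), and the interaction was -2.63 ± 0.49 SE (adjusted p = 0.00169, 0.00493 without replicate 2 and 0.00216 with the GC correction). In these bulk samples fewer cells of a type and less RNA per cell cannot be told apart. Beside it the mural marker list summed to 71.9 to 368.1 CPM in LacZ cells and 301.8 to 1154 CPM in iCre cells with TNFα, and the leukocyte list to 40.8 to 154.4 and 33.9 to 114.5 CPM. The fibroblast list summed to 25795 to 34599 CPM in LacZ cells and 15351 to 23387 CPM in iCre cells with TNFα, with no overlap. Their part in the result was not tested.

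Igfbp5 also fell with TGFβ in LacZ cells, to 189.7, 139.4, 315.7 and 255.7 CPM with no overlap, 2.41-fold (adjusted p = 0.00295) and 1.85-fold without replicate 2 (adjusted p = 0.000872). IL-1β lowered it to 464.2, 248.2, 173.2 and 169.8 CPM in LacZ cells, 2.05-fold (adjusted p = 0.045), a call that was lost without replicate 2 (1.74-fold, adjusted p = 0.104), 3 (log2 -0.98) or 4 (log2 -0.94). In iCre cells TGFβ gave 271.3, 92.1, 33.6 and 41.7 CPM and IL-1β 221.4, 279.7, 88.7 and 74.2 CPM, lower than the controls in 4 of 4 pairs with both, and each passed with the block (log2 -1.91, adjusted p = 4.83e-06, and log2 -1.02, adjusted p = 8.28e-25). That with TGFβ also passed without replicate 1 and with all 40 libraries in one fit. With bFGF replicate 2 rose to 855.0 CPM in LacZ cells while the other 3 had 250.3, 245.0 and 234.8 CPM, so the group did not pass (adjusted p = 0.545) but did without replicate 2 (log2 -0.96, adjusted p = 0.000121) and with the block (log2 -0.67, adjusted p = 0.00254), and in iCre cells bFGF passed only with the block (log2 -0.77, adjusted p = 0.0384). Outside TNFα, the difference between iCre and LacZ cells in Igfbp5 passed with the block (log2 -0.78 to -1.51, adjusted p from 0.000257 to 0.0091) and not on all 4 against 4 libraries, and with TGFβ it also passed without replicate 1.

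**Figure D5:**
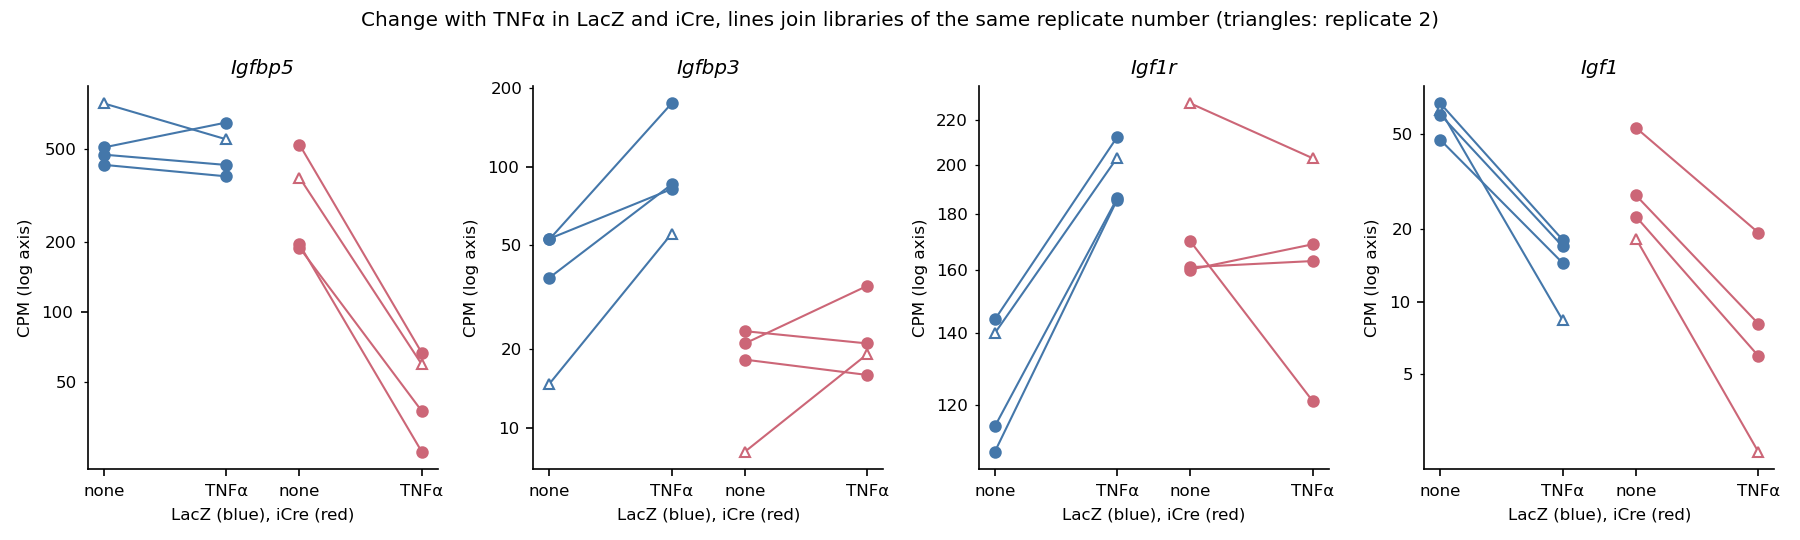
CPM on log axes of Igfbp5, Igfbp3, Igf1r and Igf1 with no ligand and with TNFα, in LacZ (blue) and iCre cells (red), with lines that join libraries of the same replicate number and open triangles for replicate 2. All 4 iCre lines of Igfbp5 fall while 1 of 4 LacZ lines rises, and Igf1r rises in all 4 LacZ lines and in 2 of 4 iCre lines.

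Igfbp3, the main carrier of IGF in blood and a gene that several growth inhibitory signals induce, was highest in LacZ cells with TNFα. There it had 85.4, 55.3, 82.0 and 174.6 CPM, against 37.5, 14.7, 52.9 and 52.6 CPM with no ligand, with no overlap. This 2.51-fold difference was not called by edgeR on 4 against 4 libraries (log2 1.33 ± 0.43 SE, edgeR adjusted p = 0.055) but was by DESeq2 (adjusted p = 0.00835), without replicate 2 (log2 1.25, adjusted p = 0.00631) and with the block (log2 1.36 ± 0.14 SE, adjusted p = 3.2e-07). In iCre cells it was 23.4, 8.08, 18.2 and 21 CPM with no ligand and 21, 19.1, 15.9 and 34.9 CPM with TNFα, higher in 2 of 4 pairs (log2 0.40, adjusted p = 0.412). With TNFα the iCre libraries were 4.32-fold below the LacZ libraries with no overlap (log2 -2.11 ± 0.36 SE, adjusted p = 0.00207; 4.77-fold without replicate 2, adjusted p = 0.00147), beside the lower fibroblast list given for Igfbp5, which accompanies every difference between viruses with TNFα. The interaction did not pass (log2 -0.95 ± 0.60 SE, adjusted p = 0.334, and 0.0724 with the block; 0.0358 with the block and GC correction). Igfbp3 was lower in iCre cells in 4 of 4 pairs in each of the 5 conditions. With IL-1β it was 23.0, 12.1, 16.1 and 31.0 CPM in iCre cells and 34.2, 30, 35.2 and 56.4 CPM in LacZ cells, 1.91-fold lower (adjusted p = 0.0495, and 0.0344 without replicate 2), a call lost without replicate 1 (log2 -1.04) or 3 (log2 -0.89) and found beside the same lower fibroblast sums as that of Igf1. With no ligand (log2 -1.13, adjusted p = 6.45e-06), bFGF (log2 -0.70, adjusted p = 0.000148) and TGFβ (log2 -0.78, adjusted p = 0.000675) the difference passed in edgeR with the block but not without it (with TGFβ it did in DESeq2, adjusted p = 0.0132), and without replicate 2 it passed with no ligand (adjusted p = 0.00546) and TGFβ (adjusted p = 0.0267). bFGF in LacZ cells gave a lower level with the block (log2 -0.79, adjusted p = 3.71e-05) and without replicate 2 (log2 -0.92, adjusted p = 0.00444). Among iCre cells Igfbp3 passed with the block only, lower with bFGF (log2 -0.39, adjusted p = 0.0249) and higher with IL-1β (log2 0.24, adjusted p = 0.03), the latter not with the GC correction added (log2 0.07, adjusted p = 0.717). By group means only LacZ cells with TNFα were separated from the next group in the order.

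Igfbp2, a binding protein of fetal tissues and of fat, rose with TGFβ whichever virus the cells carried. In LacZ cells its level was 3.46, 0.703, 6.69 and 2.18 CPM with no ligand and 19.4, 11.1, 12.8 and 7.69 CPM with TGFβ, a 3.93-fold rise with no overlap (log2 1.97 ± 0.56 SE, edgeR adjusted p = 0.0178; 3.24-fold without replicate 2, adjusted p = 0.00563; not called without replicate 1, log2 1.72, or 4, log2 2.01). In iCre cells it was 1.54, 0.581, 4.94 and 1.43 CPM with no ligand and 13.3, 17.9, 17.4 and 7.11 CPM with TGFβ, a 6.52-fold rise with no overlap (log2 2.70 ± 0.56 SE, adjusted p = 0.00293; 4.68-fold without replicate 2, adjusted p = 0.00191). The rises did not differ detectably (interaction 0.70 ± 0.84 SE, adjusted p = 0.788). With the block it was lower in iCre than in LacZ cells with no ligand (log2 -0.66, adjusted p = 0.0269), bFGF (log2 -1.16, adjusted p = 0.00424) and TNFα (log2 -0.88, adjusted p = 0.0432). IL-1β in LacZ cells gave a lower level with the block (log2 -0.66, adjusted p = 0.0138) but not with the GC correction added (log2 -0.56, adjusted p = 0.0574). No ligand other than TGFβ gave a call without a block, and in the order of group means the LacZ and iCre groups with TGFβ overlapped each other and stood apart from all the rest.

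Igfbp4 fell with TGFβ in LacZ cells, and with each of the 4 ligands there it was lower in 4 of 4 pairs. It was 409.5, 1186, 427.3 and 334.0 CPM in LacZ controls and 37.1, 293.1, 111.6 and 102.5 CPM with TGFβ, 4.26-fold lower with no overlap (log2 -2.09 ± 0.58 SE, edgeR adjusted p = 0.0172; 4.67-fold without replicate 2, adjusted p = 0.000173; not called without replicate 3, log2 -2.13, or 4, log2 -2.16). With TNFα the LacZ libraries had 52.4, 544.6, 87.8 and 62.3 CPM, so that only replicate 2 reached into the range of the controls. The group difference did not pass (log2 -1.65, adjusted p = 0.166) but did without replicate 2 (log2 -2.54, adjusted p = 8.06e-06) and with the block (log2 -2.20 ± 0.18 SE, adjusted p = 2.18e-08). IL-1β (log2 -0.95, adjusted p = 0.00335) and bFGF (log2 -1.404, adjusted p = 0.00138) gave lower values in LacZ cells in the fit without replicate 2 and with the block (adjusted p = 1.07e-07 and 1.34e-06), and neither passed on 4 against 4 unpaired libraries (adjusted p = 0.407 and 0.29). In iCre cells Igfbp4 stood at 314.5, 1259, 439.1 and 454.9 CPM with no ligand and at 45.4, 272.7, 169.4 and 258.2 CPM with TNFα, with no overlap and an edgeR adjusted p of 0.0511, or 0.000565 with the block and 0.00598 by DESeq2. With TGFβ in iCre cells the adjusted p was 0.0569, 0.006 without replicate 2 (log2 -1.48) and 5.36e-06 with the block (log2 -1.65). With bFGF there it passed only with the block (log2 -0.53, adjusted p = 0.0229). With the GC correction both passed (adjusted p = 0.0375 for TNFα and 0.0367 for TGFβ). Between viruses Igfbp4 passed only with the block, higher with iCre under bFGF (log2 0.81, adjusted p = 0.00146), TGFβ (log2 0.63, adjusted p = 0.00356) and IL-1β (log2 0.71, adjusted p = 2.06e-06), for TGFβ not with the GC correction added (log2 0.39, adjusted p = 0.129). With IL-1β in iCre cells no change was called with or without the block (log2 0.04, adjusted p = 0.991, and log2 -0.17, adjusted p = 0.0681), while with block and GC correction it was lower (log2 -0.38, adjusted p = 0.00247). The interaction of IL-1β with iCre passed only with the block (log2 0.71 ± 0.21 SE, adjusted p = 0.0264) and not with the GC correction added (log2 0.53, adjusted p = 0.145).

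Igfbp6 had no edgeR or DESeq2 call on 4 against 4 libraries, where replicate 2 was highest in every group. With no ligand LacZ cells had 53.1, 152.6, 39.2 and 48.1 CPM and iCre cells 31.9, 120.3, 29.3 and 32.8 CPM, lower in 4 of 4 pairs. This difference passed without replicate 2 (log2 -0.59, edgeR adjusted p = 0.0296) and with the block (log2 -0.52, adjusted p = 0.000134), as did that with bFGF (without replicate 2 log2 -1.05, adjusted p = 0.0168; with the block log2 -0.78, adjusted p = 0.000136). TGFβ brought LacZ cells to 21.7, 116.2, 16.4 and 17.9 CPM. It brought iCre cells to 16.4, 135.6, 9.77 and 15.6 CPM, where replicate 2 alone was above its control. Without replicate 2 Igfbp6 was lower with TGFβ in LacZ (log2 -1.32, edgeR adjusted p = 2.58e-05) and iCre cells (log2 -1.15, adjusted p = 0.000162), and with the block it was too (log2 -1.07, adjusted p = 0.000294, and log2 -0.82, adjusted p = 0.00579). On 4 against 4 unpaired libraries it was not called (adjusted p = 0.421 and 0.846). TNFα (log2 -1.11, adjusted p = 0.000484), IL-1β (log2 -0.73, adjusted p = 0.0039) and bFGF (log2 -0.56, adjusted p = 0.0256) gave lower values in LacZ cells without replicate 2, and all 3 passed with the block (adjusted p = 1.23e-10, 2.92e-09 and 3.23e-05). In iCre cells TNFα passed with the block (log2 -0.79, adjusted p = 0.00101) but not without replicate 2 (adjusted p = 0.0626), and bFGF passed in both (log2 -0.92, adjusted p = 2.06e-06, and log2 -1.02, adjusted p = 0.000685). IL-1β in iCre cells passed in neither (without replicate 2 log2 -0.10, adjusted p = 0.607) but was lower with block and GC correction (log2 -0.30, adjusted p = 0.00122), as was iCre against LacZ with TGFβ (log2 -0.60, adjusted p = 0.00359) and TNFα (log2 -0.47, adjusted p = 0.0134). The interaction of IL-1β with iCre passed with the block (log2 0.60 ± 0.11 SE, adjusted p = 0.00089) but not without it (adjusted p = 0.794) or with the GC correction added (log2 0.34, adjusted p = 0.0597).

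Igfbp7 was lower in iCre than in LacZ cells in 4 of 4 pairs in each of the 5 conditions, with no edgeR call on 4 against 4 libraries before GC correction (TNFα adjusted p = 0.131, and 0.0482 with it). In controls it was 2546.5, 1523.9, 2443.0 and 2399.8 CPM with LacZ and 1659.2, 754.8, 1294.5 and 1203.1 CPM with iCre, and only replicate 1 with iCre reached above replicate 2 with LacZ. The difference was -0.87 on the log2 scale (edgeR adjusted p = 0.164, DESeq2 adjusted p = 0.0192), -0.84 without replicate 2 (adjusted p = 0.0111) and -0.90 ± 0.07 SE with the block (adjusted p = 4.19e-07). With the block it also passed with bFGF (log2 -0.67, adjusted p = 3.75e-06), TGFβ (log2 -0.30, adjusted p = 0.0133), IL-1β (log2 -0.71, adjusted p = 1.79e-06) and TNFα (log2 -0.76, adjusted p = 0.00236), and without replicate 2 with IL-1β (adjusted p = 0.0243) and TNFα (adjusted p = 0.0275). IL-1β itself brought Igfbp7 to 3354, 1652, 2607 and 2884 CPM in LacZ cells. The iCre libraries given IL-1β had 2296, 918.8, 1603 and 1770 CPM. Both were higher than their controls in 4 of 4 pairs and passed with the block only (log2 0.23, adjusted p = 0.0392, and log2 0.42, adjusted p = 1.95e-07). TGFβ brought Igfbp7 to 2415, 978.5, 1866 and 2118 CPM in iCre cells, higher than the controls in 4 of 4 pairs (with the block log2 0.58, adjusted p = 0.00021; without replicate 2 log2 0.64, adjusted p = 0.00292). In LacZ cells it left the values at 2524, 1367, 2418 and 2335 CPM (with the block log2 -0.04, adjusted p = 0.754), and the interaction was called with the block only (log2 0.60 ± 0.13 SE, adjusted p = 0.00603). With the block and GC correction together that interaction was 0.35 with an adjusted p of 0.179.

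Of 32 other genes of the pathway, 29 were tested, and Ins1, Ins2 and Igfbp1 had 0 counts. In LacZ cells 14 passed with TGFβ (6 higher, 8 lower), 13 with IL-1β (5 and 8), 9 with TNFα (1 and 8) and 6 with bFGF (1 and 5). In iCre cells the counts were 14 with TGFβ (4 and 10), 12 with TNFα (2 and 10), 6 with IL-1β (1 and 5) and 1 with bFGF. The shares of all genes called were 36.9%, 20.7%, 21.3% and 11.6% for TGFβ, IL-1β, TNFα and bFGF in LacZ cells and 37.4%, 16.3%, 27.0% and 2.42% in iCre cells. With the block 17, 19, 21 and 13 of the list passed in LacZ cells and 16, 20, 16 and 11 in iCre cells, in the same order, beside 42.0%, 33.5%, 35.5% and 27.3% and 41.5%, 33.8%, 36.1% and 16.7% of all genes. Without replicate 2 the counts were 14, 16, 12 and 8 in LacZ cells (37.1%, 23.4%, 23.5% and 18.2% of all genes) and 16, 10, 10 and 7 in iCre cells (40.0%, 18.1%, 25.4% and 12.7%). Between iCre and LacZ cells 13 passed with TNFα (6 higher, 7 lower), 7 with IL-1β, 5 with TGFβ and 0 with bFGF or no ligand (27.3%, 16.1%, 8.37%, 0.0% and 0.0754% of all genes), and the block gave 19, 16, 13, 11 and 10 (32.2%, 29.5%, 20.8%, 13.9% and 14.5%). Without replicate 2 these were 15, 10, 10, 1 and 3 (24.4%, 16.6%, 12.5%, 1.0% and 2.78%). The median log2 change over the list stayed between -0.29 and 0.155 in all 13 comparisons of group pairs, beside medians over all genes between -0.17 and 0.04. The signalling genes, 15 of the 29 tested, held 8 of the 13 that passed between viruses with TNFα, near their share of the list.

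Insrr, an orphan receptor of the insulin receptor family, was the largest change among them, at levels near 1 CPM. It rose from 0.0378 CPM ± 0.0326 (SD, n = 4) in LacZ controls to 1.52 ± 1.24 with IL-1β (edgeR log2 5.21, adjusted p = 0.00242) and to 1.05 ± 0.0996 with TNFα (log2 4.66, adjusted p = 0.000341). In iCre cells it was at 0.0246 CPM after IL-1β and 0.0273 after TNFα (log2 against LacZ -5.81, adjusted p = 0.00152, and -4.96, adjusted p = 0.000507). Insrr lies over Pear1 on the opposite strand, which had 146695 counts, and the strand setting of the counting is not given in the sources used here. The labels name the NEBNext Ultra II RNA kit and the methods a stranded TruSeq kit, so it is not settled whether the libraries kept strand, and reads of Insrr and Pear1 cannot be told apart. Stc1, a stanniocalcin that inhibits PAPP-A, fell with TNFα in LacZ cells from 38.0 CPM ± 9.38 (SD, n = 4) to 2.47 ± 1.95, 15.4-fold (adjusted p = 0.000314), and with TGFβ in iCre cells 7.09-fold (adjusted p = 0.00602), or 14.0-fold without replicate 2 (adjusted p = 1.26e-05). Adam12, a protease that cuts binding proteins, rose 5.25-fold with TGFβ in iCre cells, from 45.4 CPM ± 23.0 to 235.2 ± 37.1 (SD, n = 4; adjusted p = 0.000336). Igfals, the subunit that holds IGF in serum complexes, was scarce, at 0.0546 CPM ± 0.0634 in iCre and 0.75 ± 0.48 (SD, n = 4) in LacZ cells with TNFα, 12-fold lower (adjusted p = 0.0112).

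The genes whose level followed each member most closely were sought over the 40 libraries among the 9461 genes that averaged 10 CPM or more, by Pearson r of log2(CPM + 1), as a description. The libraries share conditions and replicate numbers. Igf1 was followed by Fkbp7 (r = 0.928), Postn (0.919) and Col5a1 (0.913), and r stayed at 0.921 or above in the 30 libraries without replicate 2. Postn also belongs to the fibroblast marker list. Igfbp2 was followed by Fads3 (0.884), Itga11 (0.88) and Coro2b (0.88), and Igfbp5 by Rab9 (0.857), Celf2 (0.841) and Nfib (0.841). For Igfbp7 they were Fndc1 (0.9), Hist1h2bc (0.889) and Col4a2 (0.882). For Igfbp3, March5 (0.807), Pigk (0.803) and Fer (0.797) came first, and for Igf1r Kat6a (0.793), Kdm3b (0.778) and Dock1 (0.775), the loosest of the 10. The nearest genes of H19 were Capn6 (0.9), Hoxa5 (0.891) and Dtx3 (0.869), and those of Igfbp4 were Zfp618 (0.895), Frmd5 (0.87) and Mfap2 (0.86). Igfbp6 was near to Mylk (0.886) and Ccbe1 (0.865), and r without replicate 2 fell to 0.673 and 0.513. Igf2 was nearest to Gm2115 (0.867), Hic1 (0.84) and Sort1 (0.82), and for Gm2115 r was 0.026 without replicate 2.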

How the data were processed

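RNA-seq was made from 40 libraries, 10 groups of virus by ligand with 4 replicates each. The authors deposited raw read counts per gene. Per the labels and the methods, poly-A RNA was read from a single end, checked with FastQC (0.10.1 in the processing notes; the methods give another version), aligned with STAR to mm10 and counted with HTSeq (0.10.0). The annotation release and strand setting are not given in the sources used here.

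From these counts, CPM were computed on TMM effective library sizes and, per length, divided by kb of exon (GENCODE M21, GRCm38). Its genes held 99.59% of counts. Totals were 25360947 to 66160732 counts per library. Groups came from the sample labels. The 25210 genes with at least 10 counts in total were tested with the edgeR (4.0.16) quasi-likelihood test in R 4.3.3, 8 libraries per pairwise comparison (13) and 16 per interaction (4), with Benjamini-Hochberg adjustment over all genes and a threshold of 0.05; adjusted p-values are from edgeR unless another tool is named. The study calls the replicates biological and gives their sex as male. The labels do not tie them to separate animals, so p-values measure the spread between these libraries. edgeR also draws the spread of each gene toward that of all genes, so p-values with the block do not rest on its own pairs alone. Their sizes cannot be compared between comparisons. With the block in iCre cells, IL-1β gave Dlk1 a log2 of -0.581 ± 0.079 SE and an adjusted p of 1.71e-10. TGFβ gave it -1.961 ± 0.16 SE and 6.58e-07. Same-numbered libraries deviated together (correlation of deviations 0.28 to 0.854 in 52 pairs over 13090 genes), a pairing seen in the data and not stated in the labels, so a fit with the replicate number as a block is given beside results it changes. Alternatives were DESeq2 (1.42.0), RLE factors, other filters, each replicate left out, a GC correction, all 40 libraries in one fit, raw library sizes and longest transcripts.

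All 10 members are named in every group. For each, the 3 genes with the highest Pearson r are named, and of the pathway and imprinted lists at most 3 called genes with the largest change per list and kind of comparison. A few genes that these rules name are not reported here. Members and lists were chosen with earlier results of these data known. Upstream and miRNA sequences are from RefSeq tables of GRCm38.p6, which held an upstream sequence for 9 of 10 members.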

Additional observations from a re-analysis of the deposited data

Results flagged for a closer look

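In 32 of 100 pairs of gene and group the highest or lowest library stood apart from the other 3 by the Dixon test, and all 32 were replicate 2. Chance alone flags about 5% of groups, and the 10 groups share replicate numbers. H19 was highest there in all 10 groups. In LacZ cells its level in replicate 2 was 422.2 CPM with no ligand, 285.1 under bFGF, 156.6 under TGFβ, 14.8 under IL-1β and 6.36 under TNFα. In iCre cells it was 994.4, 1252.2, 213.0, 403.1 and 8.49 CPM in the same order. Igf2 was highest in LacZ cells with no ligand (1.78 CPM), bFGF (1.26) and IL-1β (0.434), and in iCre cells with no ligand (6.61), bFGF (6.39) and IL-1β (2.2).

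Igfbp4 stood high in LacZ cells with no ligand (1185.6 CPM), IL-1β (808.4) and TNFα (544.6) and in iCre cells with no ligand (1258.6) and IL-1β (1545.0). Igfbp6 did so in LacZ cells with no ligand (152.6 CPM), TGFβ (116.2) and IL-1β (93.2) and in iCre cells with no ligand (120.3), bFGF (75.8), TGFβ (135.6) and IL-1β (109.4). Single groups were flagged for Igf1r (iCre, no ligand, 227.7 CPM against 169.9 in the nearest library) and Igfbp5 (LacZ with bFGF, 855.0 against 250.3). Igfbp7 was lowest in LacZ cells with no ligand (1523.9 CPM, nearest 2399.8) and with TGFβ (1367.3, nearest 2334.7).

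The change with a ligand differed between viruses for Igf1r with TGFβ (edgeR interaction -0.662 on the log2 scale, adjusted p = 0.0258) and with TNFα (-0.744, adjusted p = 0.0212) and for Igfbp5 with TNFα (-2.628, adjusted p = 0.00169). The call of Igf1r with TGFβ was lost without replicate 1, 3 or 4 (-0.728, -0.716 and -0.635) and that with TNFα without replicate 3 or 4 (-0.765 and -0.639), while that of Igfbp5 was kept without each.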

How the results depend on the processing

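Over 170 pairs of member and comparison, 27 were called without a block, 48 without replicate 2 and 100 with the replicate block. Of 2003 alternative values 1768 kept their direction or lack of a call, 48 lost a call, 182 gained one and 5 reversed; 37 DESeq2 values had no adjusted p, 31 of them for H19 or Igf2. With the replicate block the members called numbered 6 for bFGF, 8 for IL-1β and 7 for TNFα in LacZ cells, 6 for bFGF, 9 for TGFβ and 6 for IL-1β in iCre cells, 9 between viruses with no ligand, 9 under bFGF, 6 under TGFβ, 7 under IL-1β and 6 under TNFα, and 3 for the interactions of TGFβ and IL-1β. The block took away no call, and its shares of all genes are given with the results above. With the GC correction and the replicate block these counts were 6, 7 and 7, then 6, 9 and 6, then 9, 9, 5, 6 and 6, and 3 and 1. Of 24970 genes this setting called 6858, 8470 and 9004, then 4095, 10259 and 7337. Then it called 3684, 3447, 2309, 5631 and 6916, and for the interactions 782 and 3126. The GC correction alone gave 0 between viruses with TGFβ and 1 with IL-1β. Of 24970 genes it called 322 and 2311, against 2111 and 4064 of 25210 without it. DESeq2 gave 1 for IL-1β in LacZ cells and 3, 1 and 2 between viruses with no ligand, bFGF and TGFβ. Among genes with an adjusted p it called 6652 of 19480, 1346 of 15160, 481 of 16033 and 3788 of 14183 in this order. All 40 libraries in one fit gave 3 for TGFβ and 0 for IL-1β in LacZ cells and, between viruses, 0 with TGFβ and 1 with IL-1β. Of 25210 genes that fit called 10173, 5447, 3571 and 5054 in this order, against 9297, 5208, 2111 and 4064 in the pairwise fits.

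Leaving out each replicate in turn gave ranges of 0 to 4 (bFGF), 3 to 6 (TGFβ), 0 to 3 (IL-1β) and 2 to 6 (TNFα) in LacZ cells, of 0 to 2, 3 to 8, 0 to 0 and 2 to 4 in iCre cells, of 0 to 3 (no ligand), 0 to 1 (bFGF), 0 to 2 (TGFβ), 0 to 4 (IL-1β) and 2 to 3 (TNFα) between viruses, and of 0 to 1 (TGFβ) and 1 to 2 (TNFα) for the interactions. Where the upper end exceeded the count on all replicates, it was reached without replicate 2. Of 25210 genes, in the same order, 332 to 4595, 6532 to 9354, 2324 to 5893 and 2645 to 5917 were called in LacZ cells. In iCre cells it was 0 to 3193, 6810 to 10087, 1727 to 4566 and 3519 to 6404. Between viruses it was 0 to 701, 0 to 253, 506 to 3158, 1558 to 4191 and 3276 to 6837. For the interactions it was 323 to 1329 and 1360 to 3888. Calls lost numbered 7, 3, 13 and 13 without replicates 1, 2, 3 and 4. The calls kept in all 4 were Igf1 with TGFβ and TNFα, Igf1r with TNFα and Igfbp5 with TGFβ in LacZ cells, Igf1 and Igfbp2 with TGFβ and H19 and Igfbp5 with TNFα in iCre cells, Igfbp3 and Igfbp5 between viruses with TNFα, and the Igfbp5 interaction with TNFα; of these, Igfbp5 with TGFβ in LacZ cells lost its call with all 40 libraries in one fit (-1.288).

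H19 with bFGF in iCre cells (0.17) ranged from -1.99 (without replicate 2) to 0.257 (without replicate 3) as replicates were left out, and was -1.44 with the replicate block and -1.41 with block and GC correction. With block and GC correction Igfbp4 with IL-1β in iCre cells (0.04) turned to -0.38 and Igfbp6 between viruses with TGFβ (0.01) to -0.60; the cause was not tested.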

Other observations

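Other imprinted genes were examined because H19 and Igf2 lie in an imprinted domain. All 14 of the list were tested. In LacZ cells 8 passed by edgeR with TGFβ (1 higher, 7 lower), 7 with IL-1β and 6 with TNFα (all lower), with a median log2 change over the list of -0.97, -1.10 and -1.09 beside -0.17, -0.10 and -0.08 over all genes, of which 36.9%, 20.7% and 21.3% passed. In LacZ cells the endothelial and Schwann marker lists and the sum of Tnnt2 and 3 other cardiomyocyte genes were below the controls with no overlap with each of these 3 ligands. The mesothelial list was also lower there with TGFβ and IL-1β, and the fibroblast and mural lists were higher with TGFβ, all with no overlap. The part of these shifts in the falls of the imprinted list was not tested. With the replicate block 12, 12 and 10 passed, beside 42.0%, 33.5% and 35.5% of all genes, and without replicate 2 11, 10 and 9 (37.1%, 23.4% and 23.5%). In iCre cells 7 passed with TGFβ (1 higher, 6 lower), 6 with TNFα (1 higher, 5 lower) and 1 with IL-1β, where 37.4%, 27.0% and 16.3% of all genes did, and 11 passed with each under the replicate block (41.5%, 36.1% and 33.8% of all genes). Without replicate 2 these were 12, 6 and 3 (40.0%, 25.4% and 18.1%). In iCre cells with TGFβ the fibroblast list was higher and the endothelial list lower with no overlap, and their part was not tested. With bFGF no gene of the list passed in LacZ or iCre cells (11.6% and 2.42% of all genes). None passed between viruses with no ligand, bFGF or TGFβ (0.0754%, 0.0% and 8.37%), while with the block some did in each of these. Between iCre and LacZ cells 5 passed with TNFα (3 higher, 2 lower, 27.3% of all genes) and 1 with IL-1β (16.1%). The block gave 9 and 8 (32.2% and 29.5%), and without replicate 2 there were 5 and 4 (24.4% and 16.6%). The fibroblast list was lower in iCre cells with both ligands and the Tnnt2 sum higher with IL-1β, with no overlap. The part of these shifts between viruses was not tested. Cdkn1c, an inhibitor of the cell cycle, fell with TGFβ in LacZ cells from 69.5 CPM ± 57.8 to 1.62 ± 1.74 (SD, n = 4; adjusted p = 0.000747) and with TNFα in iCre cells from 74.9 ± 32.4 to 2.88 ± 1.3 (adjusted p = 0.000186). Plagl1, a zinc finger transcription factor, fell with TNFα in iCre cells from 64.6 ± 77.9 to 0.883 ± 0.318 (adjusted p = 0.000655), 70.6-fold on all replicates and 32.9-fold without replicate 2 (adjusted p = 8.17e-05). Dlk1, a membrane protein of precursor cells, was higher in iCre than in LacZ cells with TNFα, at 45.5 CPM ± 22.6 against 8.51 ± 2.11 (adjusted p = 0.000797), and with IL-1β, at 42.6 ± 21.7 against 8.92 ± 2.05 (adjusted p = 0.00271). Plagl1 was 6.97-fold lower in iCre than in LacZ cells with TNFα, at 0.883 ± 0.318 against 6.3 ± 5.41 CPM (adjusted p = 0.00393; 4.72-fold without replicate 2, adjusted p = 0.000917). Kcnq1ot1, a noncoding RNA antisense to Kcnq1, was 4.14-fold lower there, at 1.63 ± 0.648 against 6.88 ± 1.89 CPM (adjusted p = 0.00122), and the strand setting of the counting is not given in the sources used here.

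Of 5 other genes around H19 and Igf2, Igf2os and Mrpl23 were tested, with 97 and 3831 counts over the 40 libraries, and neither was called in any of the 17 comparisons, also not without replicate 2 or with the replicate block.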
